A study of Mus musculus with 4 samples.

Results

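The genes described here are 10 mouse genes of endoplasmic reticulum (ER) protein folding and of the unfolded protein response (UPR): Hspa5, Hsp90b1, Xbp1, Calr, Pdia3, Pdia4, Pdia6, Dnajb9, Herpud1 and Sdf2l1. They were chosen by name, and each matched 1 of the 47729 Ensembl gene IDs of the count table. Naïve CD4 T cells of C57BL/6 mice (spleen, per the labels) were activated through CD3 and CD28 and driven towards induced regulatory T (iTreg) cells with 100 U/mL of IL-2, 5 ng/mL of TGF-β and antibodies, each at 5 µg/mL, that block IFN-γ and IL-4. They received either FeSO4 (50 µM) or PBS (Mock) for 4 days. Both groups shared this medium, no genetic change is named for either of them, and each had 2 libraries, which the methods describe as pairs from 2 independent experiments. The labels do not give the age of the mice, and the reporting summary of the study puts its mice, other than a knockout strain not used here, at 6 to 8 weeks. The study asked which transcripts iron regulates in iTreg cells, and the comparison here is the level of each gene in FeSO4 against Mock.

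The ER folds and modifies proteins that enter the secretory pathway or the cell surface, such as cytokines and receptors of T cells. Chaperones hold unfolded chains there, protein disulfide isomerases form and reshuffle their disulfide bonds, and chains that fail to fold are returned to the cytosol and degraded (ER-associated degradation, ERAD). When unfolded protein builds up, the UPR sensors IRE1 (Ern1), PERK (Eif2ak3) and ATF6 (Atf6) are freed from the chaperone BiP. IRE1 splices the Xbp1 messenger, PERK slows translation and favours ATF4, and ATF6 is cut in the Golgi, so that XBP1, ATF4 and ATF6 raise chaperone and ERAD genes. Counts per gene do not tell spliced from unspliced Xbp1.

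ATF6 and XBP1 are known to act through the ER stress response element (ERSE), and its sites in the promoters of these genes are shown because the element links chaperone genes to these sensors. Promoters of RefSeq (GRCm38.p6, 250 bases before to 50 after the start site) were found for 10 of 10 genes. The exact ERSE (CCAAT, 9 bases of any kind, then CCACG, on either strand) occurred in the promoters of 4 of the 10 genes and in 0.119% of 32851 mouse promoter windows (39 windows). The element is known from promoters of ER chaperone genes, so its presence in these genes is background and not a result of these data. Each line gives 30 bases, 5′ to 3′ on the strand where the element reads forward, with the fixed letters of the element in capitals.
Hspa5 ERSE (chr2:34772020-34772049, plus strand): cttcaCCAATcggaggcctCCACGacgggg
Hsp90b1 ERSE nearer the start site (chr10:86705527-86705556, plus strand): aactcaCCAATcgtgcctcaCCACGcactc
Hsp90b1 ERSE farther from the start site (chr10:86705632-86705661, minus strand): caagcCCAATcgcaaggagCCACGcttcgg
Calr ERSE (chr8:84847069-84847098, plus strand): tatgggCCAATgagggtcgaCCACGcgttg
Pdia6 ERSE (chr12:17266486-17266515, plus strand): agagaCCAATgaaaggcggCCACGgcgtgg
Herpud1 ERSE-II (chr8:94386368-94386397, plus strand): cgggcgctgATTGGgCCACGttggacactg
Between the element and the start site lay 46 bases in Hspa5, 79 in Pdia6, 143 in Calr, and 88 and 193 in Hsp90b1. Herpud1 held the related ERSE-II (ATTGG, 1 base of any kind, then CCACG, found in 0.0365% of windows) 41 bases before its start site, and also an ATF4 element (CARE, TTGCATCA, 0.895% of windows) 104 bases before it. The XBP1 element UPRE (TGACGTGG, 0.676% of windows) was in none of the 10. The elements of Herpud1 did not overlap each other. A match is a stretch of letters and not a measured binding site, and a window without one says only that these exact letters are not in it.

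The gene rows held 35183187 to 40859178 reads per library. The T cell genes Cd3e, Cd3d, Cd3g, Cd4 and Cd2 were present in every library and summed to 2070 to 2120 CPM in Mock and 2650 to 2750 CPM in FeSO4. Cd3d, Cd3g and Cd2 were called higher (log2 fold changes 0.38, 0.50 and 0.62), and Cd3e and Cd4 (0.13 each) were not called. CPM are counts scaled by library size, with the sizes adjusted by the trimmed mean of M-values (TMM). The regulatory T cell gene Foxp3 stood at 586.6 and 693.4 CPM in the Mock libraries and at 375.6 and 471.6 CPM in the FeSO4 libraries. Of the other 3 markers of these cells, Ikzf2 was also called lower, Il2ra and Ctla4 overlapped between the groups, and all 4 summed to 2170 and 2510 CPM in the Mock libraries and to 2030 and 2250 CPM in the FeSO4 libraries. Plasma cells carry much ER. Without Ighm, the other 8 markers of plasma and B cells summed to 10.1 and 2.89 CPM in the Mock libraries and to 3.09 and 2.86 CPM in the FeSO4 libraries. Ighm was called higher, at 165.4 and 159.4 CPM in the Mock libraries and at 245.0 and 274.9 CPM in the FeSO4 libraries. Among the other 8, Cd79a had 69 to 107 counts per library, Cd79b 12 to 29 and Ms4a1 0 to 1. In Mock replicate 1, Igkc had 156 counts and Jchain 62, against at most 8 and 2 in the other libraries. Of 6 myeloid markers, 4 had at most 3 counts in both FeSO4 libraries, while Cst3 was called higher, at 93.48 and 87.09 CPM in the Mock libraries against 115.4 and 117.5 CPM in the FeSO4 libraries. The myeloid list without Cst3 summed to 4.56 CPM in Mock replicate 1 and to 0.379 to 0.861 CPM in the others. Klrb1c and Ncr1, markers of NK cells, were at 0 counts, and the 2 CD8 T cell markers summed to 9.04 to 11.0 CPM. The part of these markers in the results was not tested.

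In FeSO4, 6 of the 10 genes were higher than in Mock and 0 were lower at an adjusted p under 0.05 (edgeR's quasi-likelihood test, adjusted over 13732 genes). The background is 10.9% of all tested genes called higher and 9.17% called lower. Among 4448 genes whose mean reached 50 CPM (a limit set after the data were seen), 19.5% were called higher and 12.6% lower. Both FeSO4 libraries lay above both Mock libraries in 8 of the 10 genes, where 30.1% of all tested genes did so, and below both in 1, against 29.4% of all tested genes. The changes were small: the median log2 fold change of the 10 genes was 0.27, against -0.00052 over all tested genes, and the largest was 0.56. Summed over the 10 genes, expression was 2371 and 2421 CPM in the Mock libraries against 2973 and 2896 CPM in the FeSO4 libraries. That is 0.242 and 0.248% of gene counts in Mock and 0.290 and 0.284% in FeSO4. In bulk samples, fewer or more cells of a type and less or more RNA per cell cannot be told apart.

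**Figure D1:**
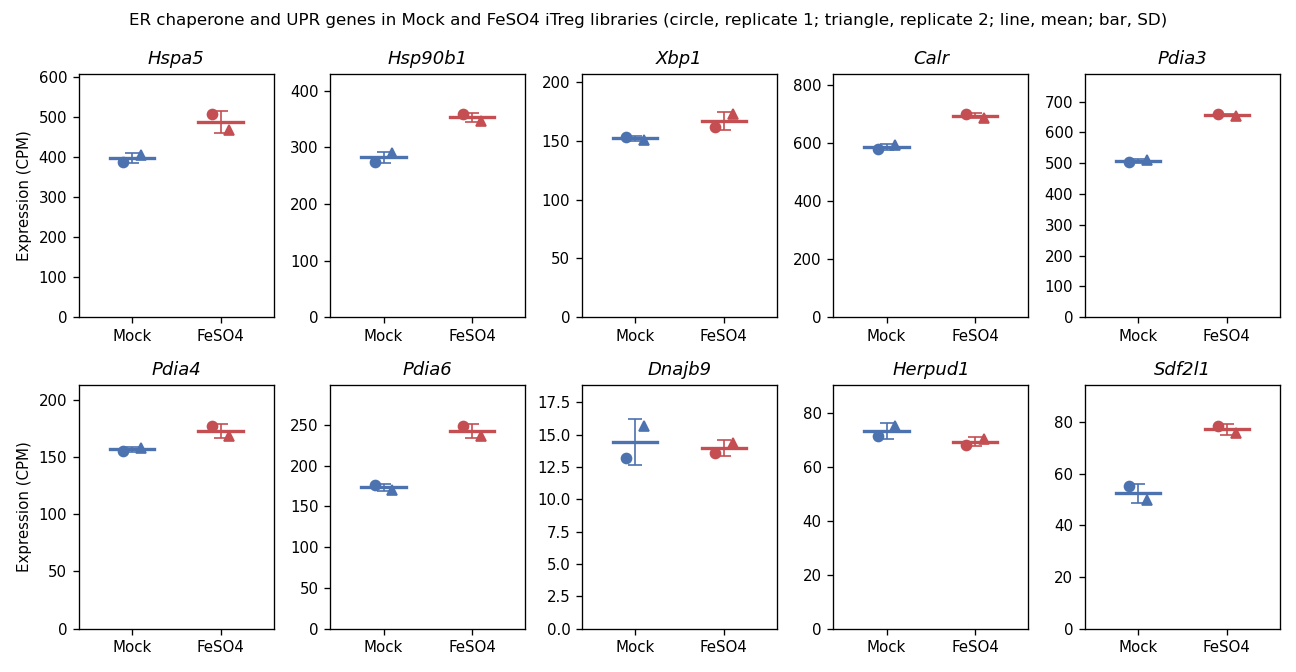
Expression in CPM (y axis, from 0) of the 10 genes in each library of Mock (blue) and FeSO4 (red), with replicate 1 as a circle, replicate 2 as a triangle, the group mean as a line and the SD as a bar. Both FeSO4 libraries lie above both Mock libraries for 8 genes, below them for Herpud1, and among them for Dnajb9.

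The genes of the chaperones BiP, GRP94 and calreticulin (Hspa5, Hsp90b1 and Calr), 3 of the 10 genes, were all called higher. Hspa5 encodes BiP, the HSP70 chaperone of the ER, which binds unfolded chains and keeps the UPR sensors inactive. Hspa5 (ENSMUSG00000026864, GRCm38.p6 chromosome 2, 34772090 to 34776529, plus strand) stood at 388.3 and 406.0 CPM in the Mock libraries and at 507.0 and 468.0 CPM in the FeSO4 libraries. The highest library was FeSO4 replicate 1, and the groups did not overlap. The group means were 397 ± 12.5 and 488 ± 27.6 CPM (SD, n = 2 each), and the log2 fold change was 0.30 ± 0.06 (SE, adjusted p = 0.00322). Hsp90b1 encodes GRP94, the HSP90 of the ER, which folds a small set of clients that includes integrins and Toll-like receptors. Hsp90b1 (ENSMUSG00000020048, chromosome 10, 86690841 to 86705444, minus strand) stood at 274.7 and 289.3 CPM in the Mock libraries and at 358.4 and 346.9 CPM in the FeSO4 libraries. Its means were 282.0 ± 10.35 and 352.6 ± 8.075 CPM (SD, n = 2 each), with groups that did not overlap, and its log2 fold change was 0.32 ± 0.06 (SE, adjusted p = 0.00143).

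Calr encodes calreticulin, a calcium-binding lectin that retains newly made glycoproteins until they fold. Calr (ENSMUSG00000003814, chromosome 8, 84842088 to 84846931, minus strand) stood at 579.5 and 594.2 CPM in the Mock libraries and at 699.4 and 687.8 CPM in the FeSO4 libraries. The gap between the groups was wider than the gap within either of them, with SDs of 10.4 and 8.23 CPM (n = 2 each). The log2 fold change was 0.24 ± 0.06 (SE, adjusted p = 0.00737), the smallest of the 6 that were called. The calls of Hspa5 and Calr were lost without FeSO4 replicate 1, where their log2 fold changes were 0.24 and 0.23 and their adjusted p-values 0.0533 and 0.0568, and without the filter on low counts that of Hspa5 was also 0.0533. Over all alternatives, the adjusted p ranged from 0.000188 to 0.0533 for Hspa5 and from 0.000612 to 0.0568 for Calr. The other 4 called genes passed in each of the 14 alternative fits.

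Of the disulfide isomerases among the 10, Pdia3 and Pdia6 were called higher and Pdia4 was not. Pdia3 encodes ERp57, the isomerase that works with calreticulin and calnexin and in the loading of MHC class I. Pdia3 (ENSMUSG00000027248, chromosome 2, 121413902 to 121438687, plus strand) stood at 502.9 and 511.2 CPM in the Mock libraries and at 659.3 and 653.6 CPM in the FeSO4 libraries. The libraries of each group were nearly level with each other, with SDs of 5.90 and 4.00 CPM (n = 2 each), and the log2 fold change was 0.37 ± 0.06 (SE, adjusted p = 0.000263). Pdia6 encodes P5, an isomerase found with BiP. Pdia6 (ENSMUSG00000020571, chromosome 12, 17266589 to 17284785, plus strand) stood at 176.6 and 170.2 CPM in the Mock libraries and at 249.2 and 237.0 CPM in the FeSO4 libraries, a rise of 40.2% in the mean. It had the smallest p of the 10 genes (log2 fold change 0.49 ± 0.06, SE, adjusted p = 5.3e-05).

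Pdia4 encodes ERp72, a further isomerase of the same family. Pdia4 (ENSMUSG00000025823, chromosome 6, 47796141 to 47813512, minus strand) stood at 155.5 and 158.6 CPM in the Mock libraries and at 177.8 and 169.1 CPM in the FeSO4 libraries. Both FeSO4 libraries were above both Mock libraries, yet the difference of 0.14 ± 0.06 on the log2 scale did not pass the threshold (SE, adjusted p = 0.136), and it ranged from 0.078 with library size only to 0.18 without FeSO4 replicate 2. Whether Pdia4 differed from Pdia3 and Pdia6 in its response was not tested.

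Sdf2l1 had the largest fold change of the 10, except in the length-corrected fit, where that of Pdia6 was larger (0.49 against 0.43). The product of Sdf2l1 is found with BiP and DNAJB co-chaperones and keeps misfolded clients soluble. Sdf2l1 (ENSMUSG00000022769, chromosome 16, 17130138 to 17132383, minus strand) stood at 55.11 and 49.79 CPM in the Mock libraries and at 78.72 and 75.81 CPM in the FeSO4 libraries. The group means were 52.5 ± 3.76 and 77.3 ± 2.06 CPM (SD, n = 2 each), a rise of 47.3%. The log2 fold change was 0.56 ± 0.08 (SE, adjusted p = 0.000114). The study set its own limit at p under 0.05 without adjustment and a log2 fold change of 0.5 or more in size. By that limit 1 of the 10 genes, Sdf2l1, was called higher and 0 were lower, where 4.67% of all tested genes were called higher and 5.73% lower. Its log2 fold change was under this limit without Mock replicate 2 (0.49), with library size only (0.49) and in the length-corrected fit (0.43). That of Pdia6 was over the limit without Mock replicate 1 (0.51) and without FeSO4 replicate 2 (0.53).

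The other 3 of the 10 genes, Xbp1, Dnajb9 and Herpud1, did not pass the threshold. Xbp1 encodes the transcription factor that IRE1 activates by splicing. Xbp1 (ENSMUSG00000020484, chromosome 11, 5520641 to 5525993, plus strand) stood at 153.8 and 150.8 CPM in the Mock libraries and at 161.8 and 172.8 CPM in the FeSO4 libraries. The FeSO4 libraries were both the higher, by less than in the called genes, and the log2 fold change was 0.14 ± 0.07 (SE, adjusted p = 0.165). It ranged from 0.071 with library size only to 0.19 without FeSO4 replicate 1.

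Dnajb9 encodes ERdj4, a BiP co-chaperone and a classical target of spliced XBP1. Dnajb9 (ENSMUSG00000014905, chromosome 12, 44205897 to 44210068, minus strand) was the least expressed of the 10, at 13.16 and 15.69 CPM in the Mock libraries and at 13.54 and 14.37 CPM in the FeSO4 libraries (464 to 656 counts). The FeSO4 libraries lay between the Mock libraries. The log2 fold change was -0.05 ± 0.14 (SE, adjusted p = 0.851), and it was 0.09 without Mock replicate 2. Herpud1 encodes HERP, a membrane protein of the ERAD complex that rises sharply in ER stress. Herpud1 (ENSMUSG00000031770, chromosome 8, 94386429 to 94395371, plus strand) stood at 71.23 and 75.25 CPM in the Mock libraries and at 68.13 and 70.43 CPM in the FeSO4 libraries. Both FeSO4 libraries were just below both Mock libraries, and the log2 fold change was -0.08 ± 0.08 (SE, adjusted p = 0.497). It was -0.036 without Mock replicate 2, -0.052 without FeSO4 replicate 1, -0.13 without Mock replicate 1 and -0.15 with library size only.

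**Figure D2:**
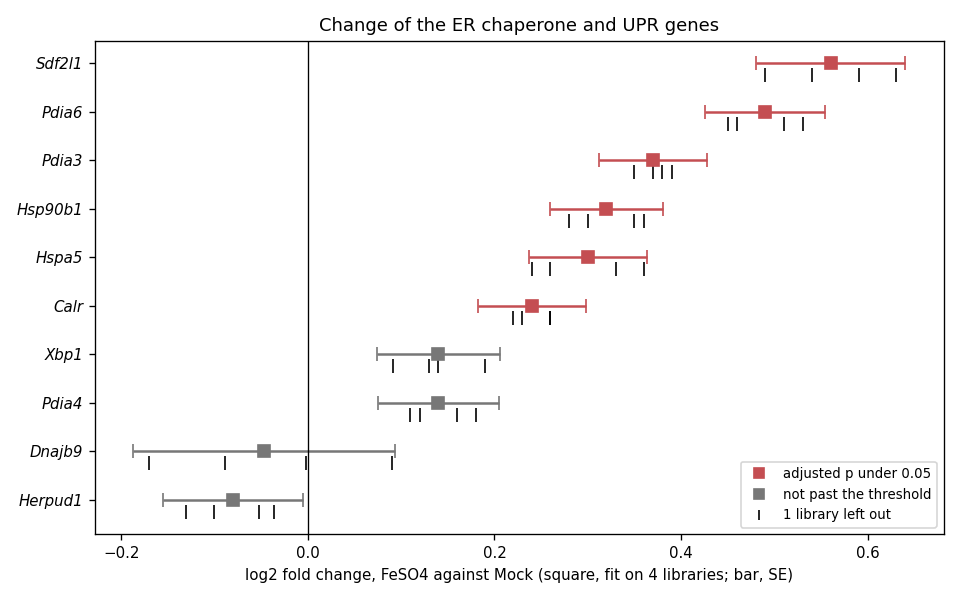
The log2 fold change of FeSO4 against Mock (x axis) for each of the 10 genes, as squares with the SE, red where the adjusted p was under 0.05 and grey otherwise. Black ticks give the fold change with 1 of the 4 libraries left out in turn. The 6 called genes stay above 0.2 in every such fit, and Dnajb9 spans 0, from -0.17 to 0.09.

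The 10 genes differed widely in level. Per kilobase of exon (GENCODE M1 lengths), the Mock means were 204 CPM for Calr, 162 for Pdia3, 113 for Hspa5, 69.9 for Hsp90b1 and 63.3 for Pdia4. Sdf2l1, Xbp1 and Pdia6 followed at 47.3, 46.9 and 46.3 CPM per kilobase in Mock, and their libraries overlapped. Herpud1 was at 31.4 and Dnajb9 at 7.73 CPM per kilobase in Mock. In FeSO4, Sdf2l1 (69.7 CPM per kilobase) reached the level of Pdia4 (69.9), whose libraries it overlapped, and Pdia6 (64.9) lay above Xbp1 (51.5). Within FeSO4, replicate 1 had the higher value in 7 of the 10 genes, and within Mock it did so in 3 of the 10.

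Fold changes in these libraries moved with transcript length. Among genes of at least 50 CPM, the median log2 fold change was 0.21 for those with up to 1000 exon bases, 0.16 at 1001 to 2000 bases, 0.09 at 2001 to 3000 bases, 0.04 at 3001 to 4000 bases and -0.09 above 6000 bases. Sdf2l1 is the shortest of the 10, with 1108 exon bases, and the other 5 called genes have 2880 to 4032. When the trend on exon length was taken out by an offset, an alternative added after the data were seen, the same 6 genes were called, and their log2 fold changes were 0.22 for Calr, 0.29 for Hspa5, 0.33 for Hsp90b1, 0.36 for Pdia3, 0.49 for Pdia6 and 0.43 for Sdf2l1. The source of the trend was not tested.

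**Figure D3:**
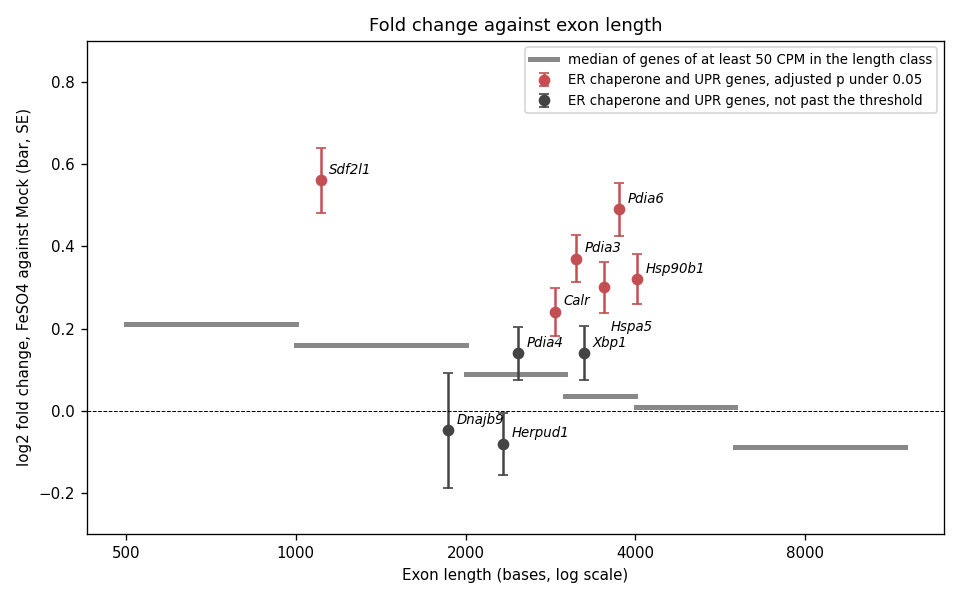
The log2 fold change (y axis, with the SE) of the 10 genes against exon length (x axis, log scale), red where called and dark grey otherwise, with grey lines for the median of genes of at least 50 CPM in each length class. The outermost classes have no outer limit and their lines are cut off. The medians fall from 0.21 in the shortest class to -0.09 in the longest, and all 6 called genes lie above the line of their class.

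The other genes of ER folding were read from lists set by role. Their counts stand beside the same background, 10.9% of all tested genes higher and 9.17% lower, and 19.5 and 12.6% of genes of at least 50 CPM. Of 14 other ER chaperones and co-chaperones, 6 (42.9%) were higher and 0 lower at an adjusted p under 0.05, with a median log2 fold change of 0.20. By the limit set by the study, 2 of them were higher. Manf, a secreted ER stress protein, had the smallest p of this list. It stood at 78.28 and 75.88 CPM in the Mock libraries and at 109.7 and 110.7 CPM in the FeSO4 libraries, and its log2 fold change was 0.52 ± 0.07 (SE, adjusted p = 7.2e-05). Fkbp2 and Ppib, which encode prolyl isomerases, rose by 42.4 and 24.9%. Canx, which encodes the membrane lectin calnexin, the partner of calreticulin, rose from 335 to 411 CPM (log2 fold change 0.29 ± 0.06, SE, adjusted p = 0.00227).

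Of 13 other ER oxidoreductases, 6 (46.2%, against 10.9% of all tested genes) were higher and 0 lower, with a median log2 fold change of 0.26. Without the filter on low counts 3 were higher, and 1 passed the limit set by the study. Prdx4, the peroxiredoxin of the ER, stood at 110.0 and 98.90 CPM in the Mock libraries and at 147.6 and 145.6 CPM in the FeSO4 libraries (log2 fold change 0.49 ± 0.07, SE, adjusted p = 0.000142). Tmx1 and Erp29 rose by 34.3 and 33.4%, and P4hb, which encodes the archetypal isomerase PDI, by 22.3%.

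The longest list held genes that bring chains into the ER and add or trim their glycans. Of these 24 genes, 14 (58.3%, against 10.9% of all tested genes) were higher and 1 lower, with a median log2 fold change of 0.24, and 0 passed the limit set by the study. Rpn1, a subunit of the oligosaccharyltransferase, averaged 199 ± 1.46 CPM with Mock and 255.5 ± 11.3 CPM with FeSO4 (SD, n = 2 each). Its log2 fold change was 0.36 ± 0.06 (SE, adjusted p = 0.000755). Ssr4 and Ssr1 of the translocon-associated complex rose by 32.1 and 26.4%, and Sec61g of the translocon by 33.0%. Stt3b, which encodes a catalytic subunit of the oligosaccharyltransferase, was the 1 lower gene, at 484.4 and 474.9 CPM in Mock and at 441.9 and 395.2 CPM in FeSO4 (log2 fold change -0.20). The count of higher genes was 9 without Mock replicate 2 and 9 without FeSO4 replicate 1. Stt3b did not pass without Mock replicate 1, Mock replicate 2 or FeSO4 replicate 2.

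Of 19 ERAD genes, 2 were higher and 0 lower (10.5% against 10.9% of all genes), with a median log2 fold change of 0.0066. This median was 0.043 without Mock replicate 2 and 0.042 without FeSO4 replicate 2. It was -0.059 with library size only and -0.012 under upper-quartile scaling. These scalings shift the median of all genes by -0.065 and -0.019, so the change of sign is not particular to ERAD genes. The 2 were Erlec1, a lectin of the complex (0.34 ± 0.11, SE, adjusted p = 0.0346), and Vimp, a selenoprotein that anchors the p97 ATPase (0.24 ± 0.08, SE, adjusted p = 0.0450). Derl2 (0.23) and Aup1 (0.21) missed the threshold, with adjusted p-values of 0.0616 and 0.0662. Leaving out Mock replicate 1 or FeSO4 replicate 1 left 1 ERAD gene called, and leaving out Mock replicate 2 or FeSO4 replicate 2 left 0. DESeq2 also called 0, and the fit with the replicate number as a block called 4 higher.

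Of 8 genes for the sensors and their processing, 0 passed the threshold in the fit of all 4 libraries by group with edgeR and TMM, in DESeq2 or in limma-voom, with a median log2 fold change of -0.05. Unadjusted, 5 of the 8 had p under 0.05 (62.5%, against 32.3% of all tested genes). Those of smallest p were Creb3 (0.26), Creb3l2 (-0.40), Mbtps1, the protease that makes the first cut in ATF6 (-0.17), and Mbtps2, which makes the next (0.26), with adjusted p-values from 0.0663 to 0.11. With library size only, 2 genes of this list were lower, and in the length-corrected fit 1 was higher. With the replicate number as a block 1 was higher and 1 lower, and without FeSO4 replicate 2, 1 was higher. The median was -0.13 without FeSO4 replicate 1, -0.12 with library size only and 0.0083 without FeSO4 replicate 2, so its sign rested on that library.

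Of 9 genes of the PERK and ATF4 list, 4 (44.4%, against 10.9% of all tested genes) were higher and 0 lower, with a median log2 fold change of 0.30. The activity of PERK was not measured, and whether PERK raised these genes was not tested. The median was 0.21 over the 8 genes with at least 10 counts in every library, and 4 were called higher there too. Trib3, an ATF4 target, stood at 26.50 and 25.04 CPM in the Mock libraries and at 49.50 and 60.89 CPM in the FeSO4 libraries, and its log2 fold change was 1.10 ± 0.10 (SE, adjusted p = 1.58e-06). Atf4 itself rose by 42.1%, and Eif2s1, which encodes eIF2α, by 23.1%. Atf3 rose from 0.592 and 0.646 CPM to 3.91 and 2.43 CPM (24 and 27 counts against 134 and 90). Ddit3, which encodes CHOP and is set apart here after its values were seen, was at 14.42 CPM in both Mock libraries and at 10.54 and 12.64 CPM in FeSO4 (log2 fold change -0.31 ± 0.14, SE, adjusted p = 0.131).

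**Figure D4:**
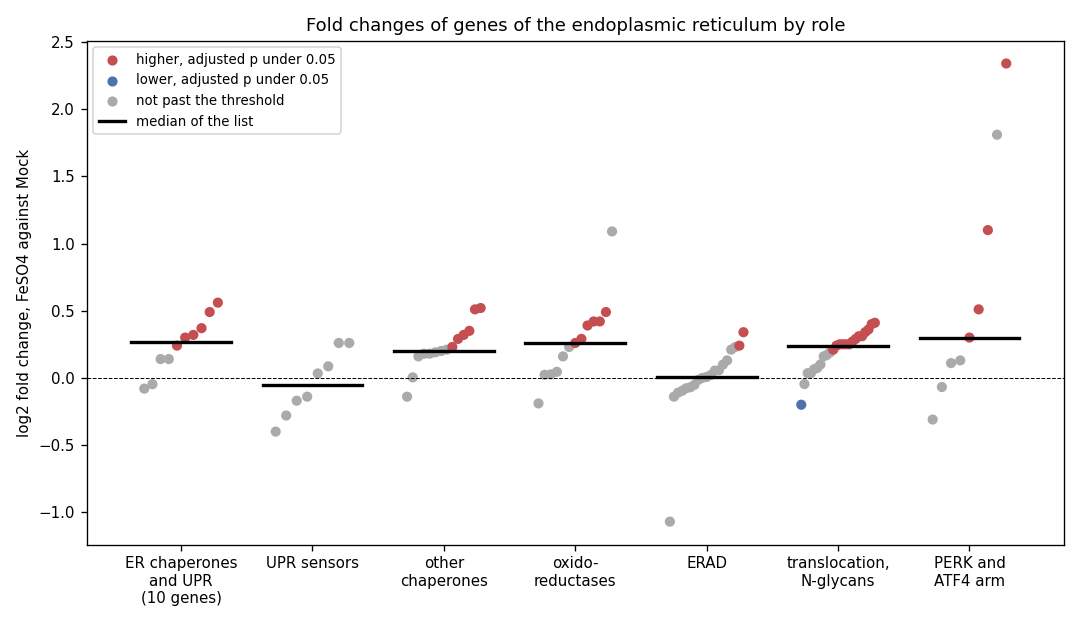
The log2 fold change of FeSO4 against Mock (y axis) of each tested gene of the 10 genes and of the 6 role lists, red where higher and blue where lower at an adjusted p under 0.05, grey otherwise, with the median of each list as a black line. Medians lie between 0.20 and 0.30 for folding, oxidation, translocation and the PERK and ATF4 list, and at -0.05 and 0.0066 for the sensors and ERAD.

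The ERSE was set beside the calls as a description. Among all RefSeq promoters, those of 17 tested genes held the exact element, of which 7 were called higher and 3 lower, beside 10.9 and 9.17% of all tested genes. Of these 17, 10 belonged to the genes and lists above. The 4 with the element among the 10 genes, Hspa5, Hsp90b1, Calr and Pdia6, were all higher in FeSO4, as were Canx and Creld2 of the chaperone list, while 4 others of the lists (Derl3, Dnajc3, Ero1lb and Syvn1) did not pass. Of the 7 genes with the element that belong to no list, 1 was called higher and 3 lower, with a median log2 fold change of -0.27. Pdia3 and Sdf2l1 were called without an exact ERSE, and Herpud1, with ERSE-II and an ATF4 element, was not called. The other tested gene of the lists with ERSE-II, Dnajb11, was called higher. Of the other 3 with the ATF4 element, Atf3 was called higher, and Chac1 and Cnpy2 did not pass. Outside the lists, 1 of 6 tested genes with ERSE-II was higher and 1 lower, and 9 of 69 with the ATF4 element were higher and 8 lower. The 4 list genes with UPRE (Txndc5, Txndc11, Ube2j1 and Vcp) were not called, and of 96 other tested genes with it 12 were higher and 9 lower. Promoters were found for 71 of the 87 list genes.

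The counting limits some of these values. Exons of Hsp90b1, Pdia3, Pdia4 and Pdia6 overlap those of other genes in GENCODE M1. Of those other genes, Catsper2 (on the strand opposite to Pdia3) had 47 to 66 counts and Gm15344 (within Hsp90b1) 26 to 48. Atp6v1c2, Mir704 and AC152453.1 had at most 2 in any library. Counts of 1810014B01Rik, on the strand opposite to Hsp90b1, are not given here. The strand setting of the counting is not given in the sources used here. Reads shared with such a gene are not counted or cannot be told apart.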

How the data were processed

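RNA-seq of 4 libraries was analysed. The authors deposited whole-number read counts for each Ensembl gene in a table with a column for each library, without normalization. The submitters' processing notes name Trim Galore 0.6.7, STAR 2.7.9a, featureCounts and mm10, whereas the methods name mm9 and DESeq. The 5 closing rows carry names that htseq-count gives. These unassigned reads (no feature 4.36 to 6.03%, ambiguous 3.78 to 3.91%, more than 1 alignment 4.27 to 4.62% of a library) were left out. Positions and promoters are from RefSeq (GRCm38.p6) and exon lengths from GENCODE M1 (93.0% of tested genes).

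Counts were fitted in R 4.3.3 with edgeR 4.0.16: filterByExpr by group (13732 genes), TMM, and the quasi-likelihood F test (legacy = FALSE) of FeSO4 against Mock. P-values were adjusted by Benjamini and Hochberg over the genes that passed the filter, with a threshold of 0.05. The SE is the log2 fold change divided by the square root of F. Nothing in the labels says that libraries came from separate animals, so p-values measure the spread between these libraries. The lowest detectable level, 3 counts, was 0.0717 to 0.0876 CPM and covers counting error only. Alternatives were DESeq2 1.42.0, limma-voom (limma 3.58.1), other scalings, filters and thresholds, the replicate number as a block and each library left out. The legacy test and the length correction (lowess, span 0.3) were added after the data were seen. On simulated data, the fit called 57.1% of genes changed by 0.5 on the log2 scale and 89.8% of those changed by 2. It called 0 of them in the wrong direction and also called 7 unchanged genes. Changes smaller than 0.5 were not simulated, so the simulation does not say how often these are missed.

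The 10 genes, the 6 role lists and the alternatives were chosen with earlier results of these data known. The text names the 10 genes and the 4 genes of smallest p per list. Genes named beyond this rule (called or single genes of a short count, promoter matches, overlapping genes and Ddit3) were chosen after their values were seen.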

Additional observations from a re-analysis of the deposited data

How the results depend on the processing

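Counts of called genes moved with the threshold, the filter or the scaling, except those of the PERK and ATF4 list. The counts of that list were 4 higher and 0 lower in every fit and at both other thresholds. The 10 genes gave 6 higher and 0 lower under every scaling. The sensors gave 0 in either direction at both other thresholds and under both other filters. At the study's threshold, 641 genes were higher and 787 lower, with 1 of the 10 genes, 2 of the chaperones, 1 of the oxidoreductases, 0 ERAD genes (1 lower) and 0 translocation genes in either direction. At an adjusted p under 0.01, 789 were higher and 597 lower, with 0 ERAD and 7 translocation genes higher (0 lower). Without the filter on low counts, 524 were higher and 304 lower among 22164 tested, with 3 oxidoreductases, 0 ERAD and 5 translocation genes higher (0 lower). With library size only, which shifts the median of all genes by -0.065, 980 were higher and 1810 lower, so that lower genes outnumbered higher ones, 2 sensors were lower, and 0 ERAD and 9 translocation genes were higher. The upper quartile, which shifts that median by -0.019, also turned this balance (1285 higher, 1390 lower). It left 1 ERAD gene, DESeq2 left 0, and the legacy test left 1. The length-corrected fit called 1 sensor higher and 0 translocation genes lower. The methods describe pairs, but no label says that the replicate number marks the experiment, so the number was a block in an alternative only. The correlation of the deviations of same-numbered libraries (r = 0.0293) was taken over all tested genes. Noise in genes of low counts can hold it near 0, so it cannot exclude a pairing. With the replicate block, 1847 genes were higher and 1580 lower, the 10 genes gave 6, the sensors 1 higher and 1 lower, and ERAD 4 higher. Leaving out each library in turn gave 893 to 1199 higher and 710 to 1158 lower genes. It gave 4 to 6 of the 10 genes, 0 to 1 sensors higher, 0 to 1 ERAD genes higher, and 9 to 13 translocation genes higher and 0 to 1 lower. The lowest totals were those without FeSO4 replicate 1. Dnajb9 alone of the 10 genes changed sign, with log2 fold changes from -0.17 without Mock replicate 1 to 0.09 without Mock replicate 2. Apart from thresholds, the cause of these shifts was not tested. Each SD here comes from 2 values only.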
